A study of Mus musculus with 12 samples.

Results

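Gene expression was compared between MGE cells and CGE cells that had both been sorted from the mouse embryonic cortex at E18.5. The members were the 3 arrays titled as MGE cells at E18.5 and the 3 titled as CGE cells at E18.5, which make up 6 of the 12 arrays in the series. The 6 others, from MGE cells at E14.5 and CGE cells at E16.5, served to estimate the spread between replicates and to test where the lineage difference at E18.5 was unlike that of the earlier days. Each array was an Affymetrix Mouse430_2 array, which reads a transcript through 1 or more probe sets, and its values are log2 intensities. Of 11358 gene symbols in the table, 8795 passed the filter on dim probe sets and were tested.

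The MGE cells came from embryos with the alleles Nkx2-1-Cre (Tg) and R26R-YFP (fl/fl), in which Cre, driven by Nkx2-1 regulatory sequence, switches on a yellow fluorescent protein at the Rosa26 locus. The CGE cells came from Nkx2-1-Cre;Dlx1-lox-Venus-lox embryos, in which Dlx1 drives the fluorescent protein Venus and Nkx2-1-Cre removes it from cells of the MGE lineage, so that cells of the caudal and lateral eminences stay labelled. Both groups therefore carried Nkx2-1-Cre, both were on a mixed C57BL/6 and CBA background, and both were untreated. The reporters and the loci that carried them differed between the groups, so that lineage, reporter and reporter locus cannot be told apart in any difference given here. Embryos were pooled, in a number per array that the labels and the methods do not state. The titles call the arrays of a group biological replicas, but nothing in the labels ties them to separate litters, so p-values measure the spread between these samples.

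The medial and caudal ganglionic eminences are ventral swellings of the embryonic forebrain that supply the cortex with inhibitory interneurons. Progenitors of the medial eminence express Nkx2-1 and depend on Lhx6 and Sox6 to make somatostatin and parvalbumin interneurons, whereas the caudal eminence makes interneurons marked by Sp8, Prox1, Nr2f2 and the serotonin receptor gene Htr3a. Ventral progenitors that have expressed Nkx2-1 also give rise to oligodendrocyte precursors, which migrate into the cortex, divide under the control of PDGF and only later form myelin. A reporter that follows Nkx2-1-Cre can therefore label cells of both kinds.

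The 2 groups stood apart on the arrays as a whole. Over all probe sets, arrays of the same group correlated at r = 0.972 to 0.985, and arrays of different groups at r = 0.904 to 0.941. At an adjusted p under 0.05 (limma, Benjamini-Hochberg over all genes tested), 1143 genes were higher in MGE cells, which is 13.0% of those tested, and 866 were higher in CGE cells, which is 9.85%. Among the called genes, 245 differed by 4-fold or more towards MGE cells and 60 towards CGE cells, and 55 and 7 differed by 16-fold or more. Of the genes at 4-fold or more, 193 of 245 and 43 of 60 had a mean below the filter level in the other group. Their sizes are therefore set against dim values at E18.5. Such a gene could pass the filter through the high group, through the arrays of the earlier days, or through both. Lhfpl3, for example, also read 8.44, 8.31 and 8.53 in MGE cells at E14.5. Counts of list members below are limited by the filter too. A member dim in the other groups was tested only where 1 group was high. In all, 36.8% of the genes tested had groups that did not overlap. The median difference over all genes was -0.02 on the log2 scale, which is the level against which gene lists are read below. All differences are MGE minus CGE on the log2 scale, given with the standard error of the fit and n = 3 arrays per group.

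**Figure D1:**
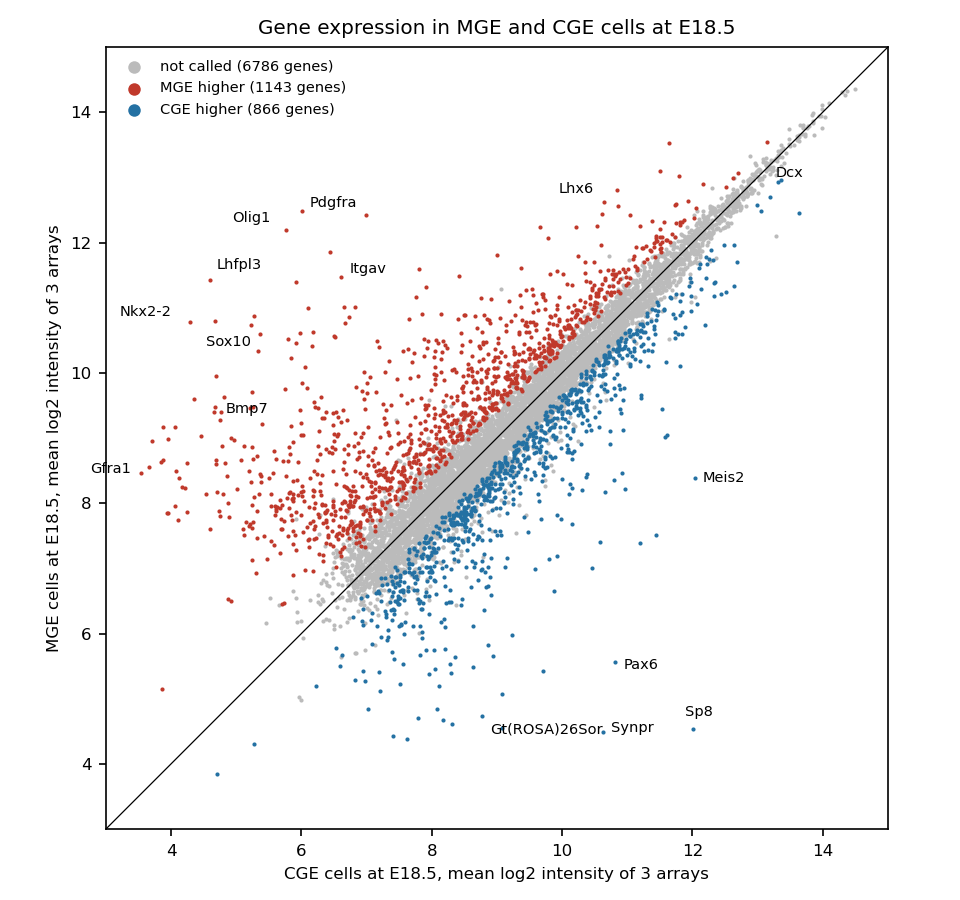
Each point is 1 of the 8795 genes tested, placed by its mean log2 intensity over 3 arrays in CGE cells at E18.5 (x axis) and in MGE cells at E18.5 (y axis), with colours for the 1143 genes called higher in MGE cells, the 866 called higher in CGE cells and the rest. Genes such as Nkx2-2, Lhfpl3 and Gfra1 lie far above the diagonal at low CGE values, and Sp8, Synpr and Pax6 far below it.

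The labels were first set against marker genes. Lhx6, which marks the whole MGE interneuron lineage, read 12.62, 12.80 and 12.45 on the 3 MGE arrays and 10.64, 10.45 and 10.87 on the 3 CGE arrays. The groups did not overlap, but CGE cells also lay well above the filter level of 7.10 to 7.17. Sp8, the zinc finger gene of the CGE and LGE, read 4.46, 4.58 and 4.57 in MGE cells and 11.84, 12.25 and 11.97 in CGE cells, so that it lay below the filter level on every MGE array. Of 7 tested markers of MGE interneurons, 5 were called higher in MGE cells, and of 7 tested markers of CGE interneurons 5 were called higher in CGE cells. Pan-GABAergic genes were high in both groups, with a list mean of 10.56 to 10.85 on the MGE arrays and 11.31 to 11.50 on the CGE arrays. Nkx2-1 itself was not tested. Doublecortin (Dcx), a microtubule protein of migrating neurons, read 13.26, 13.24 and 13.08 in MGE and 12.97, 13.20 and 13.29 in CGE cells, among the highest values of either group.

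Genes of oligodendrocyte precursors had the largest differences towards MGE cells. Of the 11 markers of these cells that were tested, 11 were called higher in MGE cells, with a median difference of 5.47. Their mean lay between 10.10 and 10.80 on the MGE arrays and between 5.04 and 5.31 on the CGE arrays, below the filter level. Gpr17, for example, had means of 5.72 and 5.48 in MGE cells at E14.5 and CGE cells at E16.5. Such a member was tested only because it was high in MGE cells at E18.5. The count of 11 was thus favoured by the filter and is a description only. Among oligodendrocyte lineage transcription factors, 12 of 15 were higher in MGE cells and 2 were higher in CGE cells (median 1.87). Nkx2-2, a homeodomain factor that promotes oligodendrocyte differentiation, read 10.64, 10.49 and 11.20 in MGE cells and 4.07, 4.31 and 4.50 in CGE cells. Every CGE value was below the filter level, and the difference was 6.49 ± 0.23 (adjusted p = 7.3e-09). Tcf7l2, a partner of beta-catenin that is also required for oligodendrocyte maturation, was higher by 4.81 ± 0.22, and Olig2 was higher by 4.39. The 2 members that were higher in CGE cells were Id4, an inhibitor of basic helix-loop-helix factors (-1.18 ± 0.15), and the zinc finger gene St18 (-1.01 ± 0.18).

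Receptors and surface proteins of the same cells showed the same separation. Of 19 tested surface and matrix genes of oligodendrocyte precursors, 17 were higher in MGE cells and 0 were higher in CGE cells (median 3.08). Pdgfra, the receptor through which PDGF drives their division, read 12.52, 12.25 and 12.70 in MGE cells and 5.08, 6.59 and 6.33 in CGE cells. Lhfpl3 read 11.47, 11.03 and 11.80 against 4.74, 4.43 and 4.63, and it had the largest difference of any gene tested towards MGE cells. Ednrb, which encodes an endothelin receptor, was higher by 5.42 ± 0.25, and Gpr17, an orphan receptor of committed precursors, by 5.23 ± 0.19. The list mean was highest on MGE replicate 3, at 10.78 against 10.32 and 10.17 on the other MGE arrays, and that array was also highest for the oligodendrocyte lineage transcription factors, at 10.72 against 10.39 and 10.20. Fewer cells of a type and less RNA per cell cannot be told apart in RNA from sorted pools.

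Other genes with very large differences belonged to no list that was drawn up. Calcrl, the receptor subunit for adrenomedullin and calcitonin gene-related peptide, read 8.89, 8.66 and 9.29 in MGE cells and 3.73, 3.54 and 3.85 in CGE cells (5.24 ± 0.15). Gatm, which encodes the first enzyme of creatine synthesis, was higher by 5.24 ± 0.19. Shc4, an adaptor of receptor tyrosine kinases, was higher by 5.25 ± 0.30, Tmem132d by 5.29 ± 0.18 and the matrix protein gene Vit by 5.11 ± 0.26. For each of these 5 genes, all CGE values were below the filter level.

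Promoter windows of 5 genes with large differences are shown as examples from both sides of the comparison, chosen after their values were seen. They are RefSeq windows of GRCm38.p6 of 300 bases that hold a gene's start, and capitals mark matches on either strand to any of 4 searched motifs: the SOX core ACAAAG or ACAATG, the homeodomain core TAATTA, the MEIS core TGACAG and the GC box GGGCGG. Lhfpl3 (chr5:22745804-22746103, plus strand) and Pdgfra (chr5:75152001-75152300, plus strand) were higher in MGE cells, and Sp8 (chr12:118846079-118846378, plus strand), Synpr (chr14:13284530-13284829, plus strand) and Adarb2 (chr13:8202616-8202915, plus strand) were higher in CGE cells.
Lhfpl3: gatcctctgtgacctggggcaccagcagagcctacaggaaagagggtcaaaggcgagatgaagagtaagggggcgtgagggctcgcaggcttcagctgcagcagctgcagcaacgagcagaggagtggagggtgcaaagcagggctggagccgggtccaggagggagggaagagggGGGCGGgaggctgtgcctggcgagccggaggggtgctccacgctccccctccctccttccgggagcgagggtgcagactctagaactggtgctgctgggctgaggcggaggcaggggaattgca
Pdgfra: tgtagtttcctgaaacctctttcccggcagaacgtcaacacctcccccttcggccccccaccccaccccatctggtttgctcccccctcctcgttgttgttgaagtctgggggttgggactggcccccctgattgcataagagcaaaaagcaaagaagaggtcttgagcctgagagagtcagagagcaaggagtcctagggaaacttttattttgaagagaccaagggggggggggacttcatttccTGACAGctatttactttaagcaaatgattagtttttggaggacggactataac
Sp8: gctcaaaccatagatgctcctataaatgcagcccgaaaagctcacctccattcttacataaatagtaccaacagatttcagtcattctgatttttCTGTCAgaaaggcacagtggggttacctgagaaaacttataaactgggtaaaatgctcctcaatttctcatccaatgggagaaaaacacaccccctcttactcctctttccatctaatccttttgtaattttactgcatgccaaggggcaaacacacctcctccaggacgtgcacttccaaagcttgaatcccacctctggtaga
Synpr: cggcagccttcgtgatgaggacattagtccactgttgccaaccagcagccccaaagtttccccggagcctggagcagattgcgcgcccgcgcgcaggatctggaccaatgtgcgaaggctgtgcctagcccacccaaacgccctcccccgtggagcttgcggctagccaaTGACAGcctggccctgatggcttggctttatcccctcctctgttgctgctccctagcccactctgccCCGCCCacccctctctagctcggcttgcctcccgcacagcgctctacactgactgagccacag
Adarb2: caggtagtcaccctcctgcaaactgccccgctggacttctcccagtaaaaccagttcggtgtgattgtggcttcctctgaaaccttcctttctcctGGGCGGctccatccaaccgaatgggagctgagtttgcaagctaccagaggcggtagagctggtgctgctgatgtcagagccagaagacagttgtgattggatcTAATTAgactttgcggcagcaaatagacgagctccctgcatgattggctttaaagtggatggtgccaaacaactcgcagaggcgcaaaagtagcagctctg
The Sp8 window is the first of 3 and the Synpr window the first of 2 that the table lists. The windows of Lhfpl3, Synpr and Adarb2 each held 1 GC box, those of Pdgfra, Sp8 and Synpr 1 MEIS core, and that of Adarb2 1 homeodomain core. Their base composition differed, with 66.0% G and C for Lhfpl3 and 43.0% for Sp8. A GC box was present in 67.6% of the windows of genes tested, a MEIS core in 15.6%, a SOX core in 19.1% and a homeodomain core in 2.2%. The SOX core was present in 17.4% of the windows of genes higher in MGE cells and in 25.0% of those of genes higher in CGE cells, out of 874 and 676 genes with a window. Over all promoters in the table, 1 per gene, the shares were 35.9%, 19.3%, 28.8% and 5.3% for the GC box, MEIS, SOX and homeodomain cores. A match is a match of letters only, and no test was made of these shares. Sox10 and Olig1 had no window in the table.

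Genes of later oligodendrocytes were measured in part. Of 26 listed genes of myelin and premyelinating cells, 14 were in the table and 9 were tested, and Mbp, Mag and Mog were not among those tested. Of the 9, 5 were higher in MGE cells and 2 were higher in CGE cells (median 1.82). Itpr2, the inositol trisphosphate receptor that marks newly committed oligodendrocytes, read 9.09, 9.09 and 9.64 in MGE cells and 4.86, 4.97 and 4.43 in CGE cells (4.52 ± 0.23). Bcas1, a marker of early myelinating cells, was higher by 4.24 ± 0.42, and Ugt8a, which makes the myelin lipid galactosylceramide, by 4.22 ± 0.34. Cnp, an enzyme of myelin cytoplasm, was higher by 2.84 ± 0.25. Against this direction, the cytoskeletal gene Ermn was -1.33 ± 0.20 and the small GTPase gene Rras2 was -1.24 ± 0.23.

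Lipid synthesis did not move as a block. Only 1 of 19 cholesterol synthesis genes was called in each direction, Dhcr7 (0.64 ± 0.17) and Fdft1 (-0.65 ± 0.15), and the list median was 0.16. The call of Dhcr7 was lost in 3 of 17 alternative settings. Fatty acid and sphingolipid genes had 7 of 21 called towards MGE cells and 0 towards CGE cells (median 0.34). Scd1, which desaturates stearate, was higher by 3.06 ± 0.39, with MGE values of 9.15, 8.63 and 9.37 and CGE values of 5.80, 6.88 and 5.29. Fabp7, a fatty acid-binding protein of radial glia and oligodendrocyte precursors, was higher by 1.88 ± 0.15, and the elongase Elovl6 by 1.30 ± 0.17.

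Markers of radial glia and astrocytes were divided. Of 14 tested, 7 were higher in MGE cells and 2 in CGE cells (median 0.48). S100b, a calcium-binding protein of glia, was higher in MGE cells by 3.05 ± 0.22 and the glutamate transporter gene Slc1a3 by 2.73 ± 0.28. Pax6 went the other way and read 5.91, 5.67 and 5.09 in MGE cells and 10.38, 11.22 and 10.83 in CGE cells (-5.25 ± 0.32). The nuclear receptor gene Nr2e1 was -1.21 ± 0.13. The intermediate filament gene Vim was 0.12 ± 0.31, and the astrocyte genes Gfap, Aqp4 and Aldh1l1 were not tested. Markers of other cells gave few calls. The 2 tested pallial glutamatergic genes, Neurod2 and Neurod6, were at 0.96 and 0.20, and their mean ranged from 6.54 to 7.92 on MGE arrays and from 5.79 to 7.21 on CGE arrays. For 3 microglia genes the mean ranged from 6.91 to 7.72 and from 6.98 to 7.97. Of 2 tested genes of Cajal-Retzius cells, the calcium channel subunit gene Cacna2d2 was called (1.32 ± 0.24) and Reln was not (0.53 ± 0.39). Of 2 vascular genes, the collagen gene Col4a1 was called at 0.69 ± 0.21 and lost the call in 6 of 16 alternative settings.

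**Figure D2:**
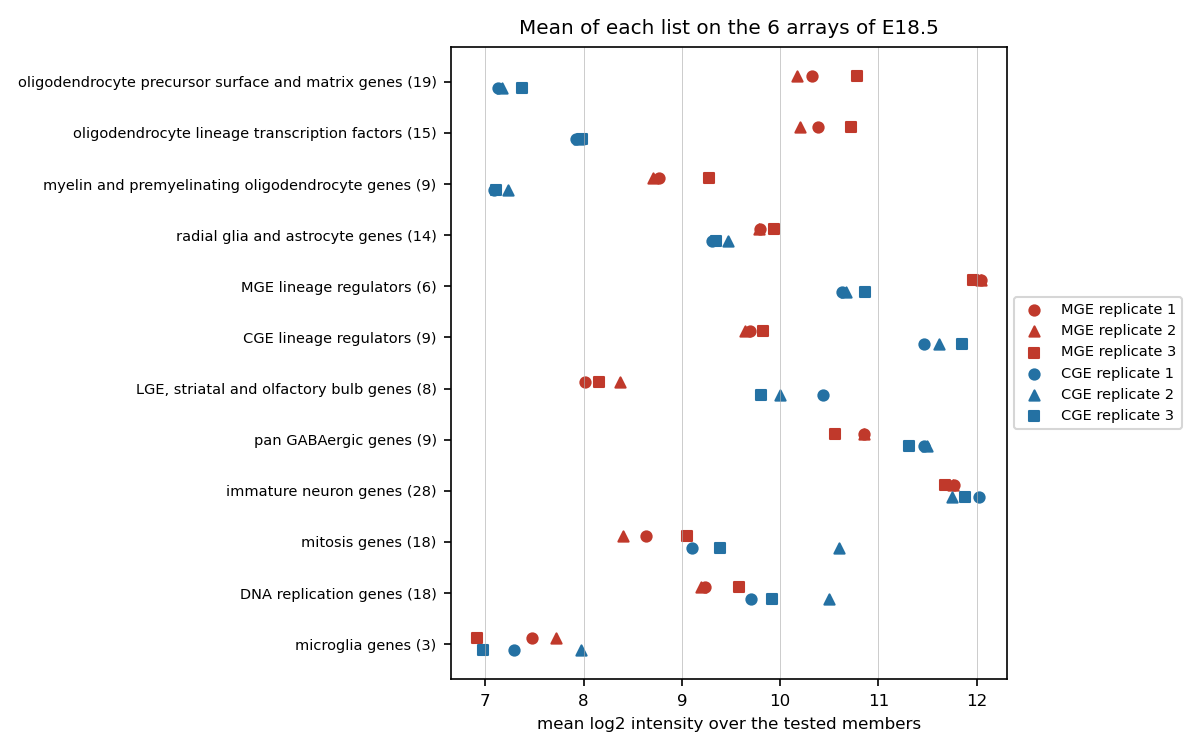
Each row is a gene list with the number of tested members in brackets, and each symbol is the mean log2 intensity (x axis) of that list on 1 of the 6 arrays of E18.5, red for MGE and blue for CGE cells, with a shape for each replicate number. The oligodendrocyte precursor lists lie more than 2 units apart between the groups, and the mitosis list is at 10.60 on CGE replicate 2 against 9.10 and 9.39 on the other CGE arrays.

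Of 16 tested genes of the FGF, MAP kinase feedback and PDGF list, 11 were higher in MGE cells and 0 in CGE cells (median 0.79). The list shares Pdgfra with the precursor list. Sprouty genes encode feedback inhibitors that are induced by receptor tyrosine kinase signalling. Spry1 read 8.78, 8.66 and 9.46 in MGE cells and 5.03, 4.86 and 5.0 in CGE cells (4.0 ± 0.19), Spry4 was higher by 3.59 ± 0.35 and Spry2 by 1.25 ± 0.22. Dusp6, a phosphatase that inactivates ERK, was higher by 1.92 ± 0.37. Of the FGF receptor genes, Fgfr1 was called at 0.49 ± 0.15, a call lost in 7 of 16 alternative settings, and Fgfr2 (0.12 ± 0.17) and Fgfr3 (0.17 ± 0.10) were not called. In the list of chemokine and growth factor receptors of migration, 7 of 15 were higher in MGE cells and 1, the hepatocyte growth factor receptor gene Met (-3.15 ± 0.28), was higher in CGE cells (median 0.49). Gfra1, the co-receptor for GDNF, was at 8.23, 8.38 and 9.07 against 3.60, 3.77 and 3.59 (4.90 ± 0.18), and the neuregulin receptor gene Erbb3 was higher by 3.79 ± 0.20.

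Among BMP and TGF-beta pathway genes, 8 of 20 were higher in MGE cells and 3 in CGE cells (median 0.14). The ligand gene Bmp7 read 9.60, 9.0 and 9.83 in MGE cells and 4.80, 4.55 and 4.69 in CGE cells (4.80 ± 0.20). The ligand genes Tgfb2 (2.16 ± 0.49) and Tgfb3 (1.76 ± 0.11) and the target gene Id3 (2.46 ± 0.21) were also higher in MGE cells. The decoy receptor gene Bambi (-1.05 ± 0.14) and the type I receptor gene Acvr1 (-0.64 ± 0.13) were higher in CGE cells.

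Notch pathway genes were called in both directions, 4 of 15 towards MGE cells and 5 towards CGE cells (median -0.31). Of the 4 genes higher in MGE cells, 3 were target genes and the other was the co-activator gene Maml2 (1.59 ± 0.23). Nrarp, a feedback target of Notch, was higher by 3.05 ± 0.33, Hes5 by 2.45 ± 0.49 and Hey1 by 1.87 ± 0.39. The 5 genes higher in CGE cells were the receptor gene Notch2 (-0.80 ± 0.21, a call lost in 2 of 17 alternative settings), the ligand gene Jag1 (-0.71 ± 0.17, named here after its values were seen), Mfng, a glycosyltransferase that modifies Notch (-1.62 ± 0.12), Hes6, an antagonist of Hes1 (-0.83 ± 0.13), and Rbpj, the DNA-binding partner of Notch (-0.74 ± 0.12). The receptor gene Notch1 was not called by the probe set that stood for it (0.53 ± 0.29), and its other probe set was called higher in MGE cells (0.90). Hes5 rested in part on CGE replicate 3, where it read 6.46 against 8.73 and 8.61 on the other CGE arrays, while MGE cells read 10.47, 10.15 and 10.54.

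Wnt pathway genes counted 5 of 17 with a call towards MGE cells and 3 towards CGE cells (median -0.21). Besides Tcf7l2, the genes called towards MGE cells had differences of 0.54 (Wnt7a) to 0.75 (Lrp6). The ligand gene Wnt5a read 7.71, 7.34 and 7.18 in MGE cells and 10.81, 10.06 and 10.87 in CGE cells (-3.17 ± 0.22), the receptor gene Fzd2 was -1.82 ± 0.23 and Apcdd1, an inhibitor of Wnt signalling, was -1.21 ± 0.28. The target gene Axin2 was -0.50 ± 0.21 and was not called. Of 5 hedgehog pathway genes, 2 were higher in CGE cells and 0 in MGE cells, although the list median was 0.35. Cdon, a co-receptor for hedgehog, was -1.58 ± 0.17. Sufu was -0.50, a call lost in 6 of 16 alternative settings.

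Genes of the cell surface and the extracellular matrix formed one of the largest groups on the MGE side. Of 26 tested matrix and integrin genes, 17 were higher in MGE cells and 4 were higher in CGE cells (median 1.75). Col19a1, a fibril-associated collagen gene, read 10.80, 10.46 and 10.96 in MGE cells and 5.12, 5.44 and 5.10 in CGE cells (5.52 ± 0.24). Itgav, the integrin alpha-v chain gene, read 11.48, 11.13 and 11.79 against 6.25, 6.84 and 6.74 (4.85 ± 0.21). Sparc, a secreted matricellular protein gene, was higher by 3.40 ± 0.33. On the CGE side, the laminin receptor chain gene Itga6 was -1.74 ± 0.22, and the glypican gene Gpc1 was -0.54 ± 0.13.

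Cadherins and protocadherins, which mediate contacts between cells, had 11 of 19 called towards MGE cells and 3 towards CGE cells (median 0.58). The protocadherin gene Pcdh11x read 10.61, 10.23 and 10.86 in MGE cells and 6.0, 6.57 and 6.95 in CGE cells (4.06 ± 0.25). Pcdh15, which also marks oligodendrocyte precursors, was higher by 3.90 ± 0.14, Pcdh19 by 2.56 ± 0.33 and the giant cadherin gene Fat1 by 2.54 ± 0.39. Pcdh18 was -1.77 ± 0.27 and Fat4 was -0.80 ± 0.19, both higher in CGE cells.

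**Figure D3:**
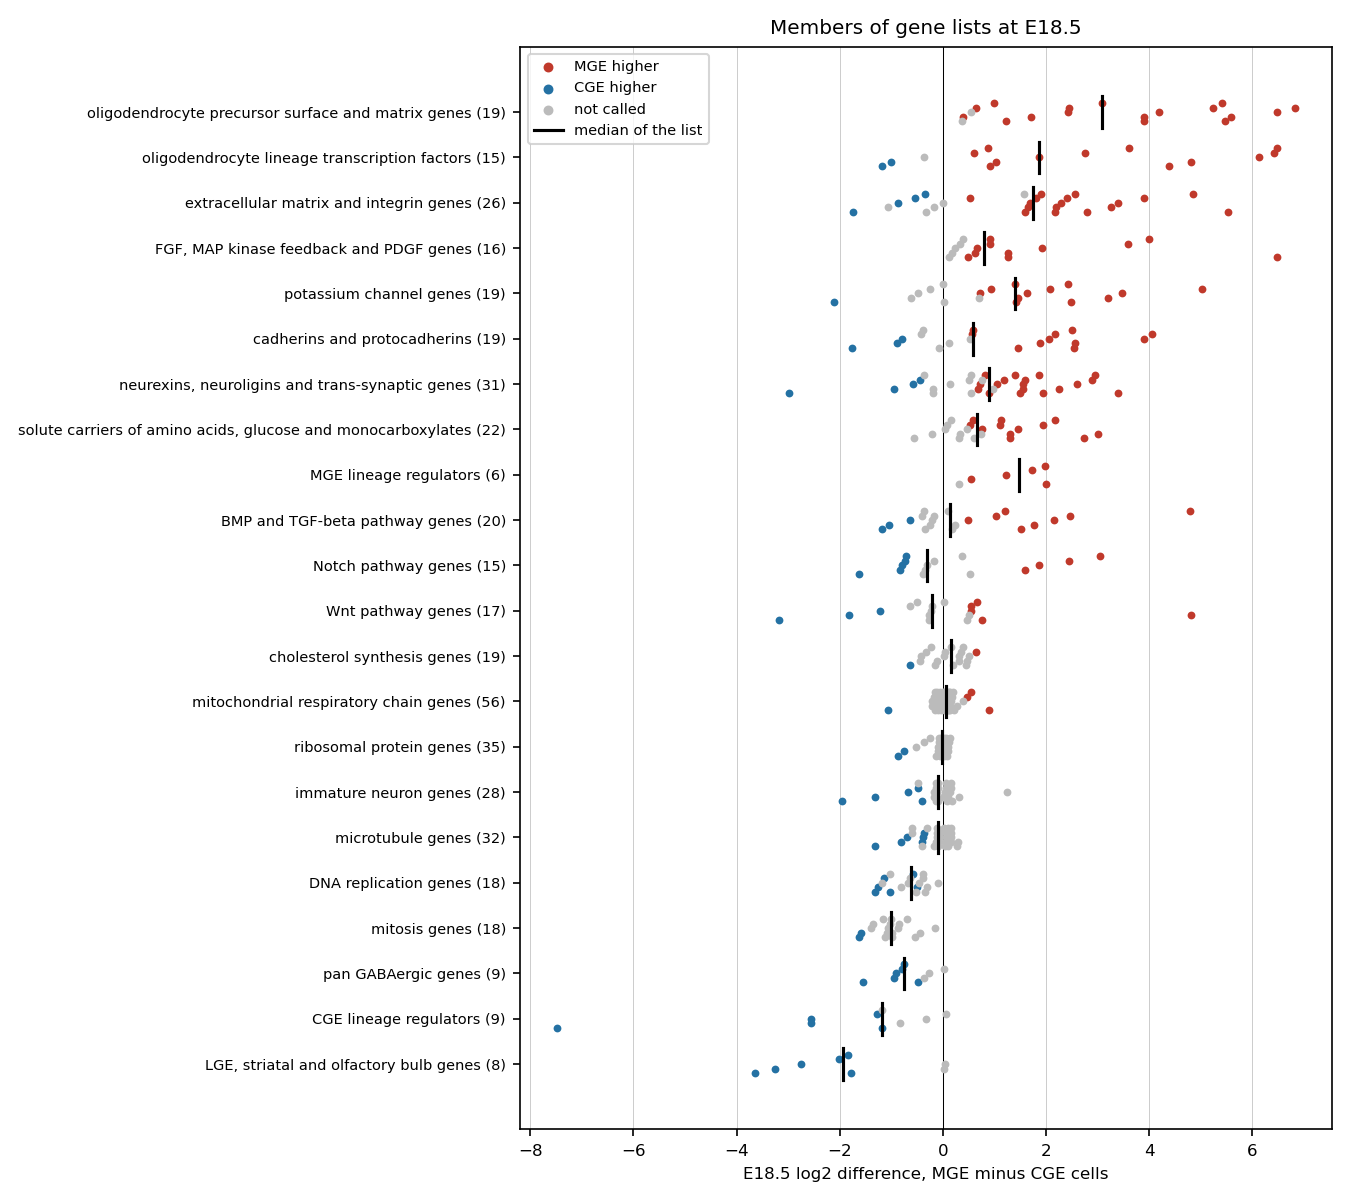
Each row is a gene list with the number of tested members in brackets, each point is the E18.5 log2 difference of 1 member (x axis, MGE minus CGE cells), coloured by its call, and the black bar is the median of the list. Only some of the lists are drawn, and their medians run from 3.08 for oligodendrocyte precursor surface and matrix genes to -1.93 for LGE, striatal and olfactory bulb genes, while ribosomal protein genes lie at -0.02.

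Trans-synaptic adhesion genes had 18 of 31 called towards MGE cells and 4 towards CGE cells (median 0.90). These proteins bridge the synaptic cleft, and several are expressed by glia as well as by neurons. Nxph1 encodes a neurexophilin that binds neurexins in MGE interneurons, and it read 11.32, 11.41 and 11.22 in MGE cells and 8.17, 7.38 and 8.18 in CGE cells (3.41 ± 0.29). Nxph2 was higher by 2.88 ± 0.53, with 9.98, 10.00 and 9.85 against 8.15, 5.65 and 7.37. Slitrk2 was higher by 2.94 ± 0.46 and the neuroligin gene Nlgn1 by 2.60 ± 0.23. Cbln2, a secreted neurexin ligand gene, went the other way and read 4.55, 4.36 and 4.39 in MGE and 7.49, 6.76 and 8.0 in CGE cells (-2.98 ± 0.24).

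Ion channel genes divided by type. Potassium channel genes counted 12 of 19 with a call towards MGE cells and 1 towards CGE cells (median 1.40). Kcnj16 and Kcnj10 encode inward rectifiers that assemble with each other in glia. Kcnj16 read 9.08, 8.40 and 9.47 in MGE cells and 3.99, 3.97 and 3.90 in CGE cells (5.03 ± 0.22), and Kcnj10 was higher by 3.47 ± 0.28. The A-type channel gene Kcnd2 was higher by 3.21 ± 0.27 and its auxiliary subunit gene Kcnip3 by 2.48 ± 0.26. The small-conductance channel gene Kcnn1 was the single member called higher in CGE cells (-2.11 ± 0.30). Sodium, calcium and cation channel genes had 6 of 18 called towards MGE cells and 3 towards CGE cells (median 0.20), among them the calcium channel gene Cacna1e (2.17 ± 0.43) and the auxiliary subunit gene Cacna2d3 (-2.75 ± 0.27).

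AMPA and kainate receptor genes had 6 of 13 called towards MGE cells and 0 towards CGE cells (median 0.65), with the subunit gene Gria3 the farthest apart (4.45 ± 0.20). Gria4, an AMPA receptor subunit gene of MGE interneurons, read 11.16, 11.08 and 11.09 against 9.17, 8.95 and 9.44 (1.92 ± 0.15), and the auxiliary subunit gene Cacng3 was higher by 2.15 ± 0.36. Of 10 GABA and glycine receptor and chloride transporter genes, 5 were higher in MGE cells and 0 in CGE cells (median 0.73), including the GABA receptor subunit gene Gabrg1 (4.79 ± 0.23). Of 6 NMDA and metabotropic glutamate receptor genes, 3 were higher in MGE cells and 1, the NMDA receptor subunit gene Grin2d (-1.48 ± 0.34), was higher in CGE cells (median 1.75). Neuromodulator receptor genes were divided, with 2 of 6 called in each direction (median -0.22). P2rx7, an ATP-gated channel gene, read 9.64, 9.44 and 10.03 in MGE cells and 4.64, 5.32 and 5.77 in CGE cells (4.46 ± 0.26), and Chrna4 was higher by 2.93 ± 0.22. The 2 higher in CGE cells were Htr3a and Cnr1. Htr3a read 7.18, 7.75 and 7.62 in MGE and 11.79, 10.88 and 11.63 in CGE cells, and the cannabinoid receptor gene Cnr1 read 7.24, 7.30 and 6.50 against 10.42, 9.77 and 11.21.

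Membrane transporters of nutrients counted 12 of 22 with a call towards MGE cells and 0 towards CGE cells (median 0.67). The glutamate transporter gene Slc1a1 was higher by 3.01 ± 0.34, Slc1a2 by 1.31 ± 0.27, the monocarboxylate transporter gene Slc16a1 by 1.45 ± 0.25 and the glucose transporter gene Slc2a3 by 1.14 ± 0.22. Genes of glycolysis and hypoxia had 5 of 24 called towards MGE cells and 1 towards CGE cells (median 0.23), and the respiratory chain genes for 3 and 1 of 56 (median 0.06).

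Regulators of the MGE interneuron lineage had 5 of 6 called towards MGE cells (median 1.48). Sox6, which acts downstream of Lhx6, read 10.61, 10.60 and 10.87 against 8.33, 9.14 and 8.61 (2.00 ± 0.20). Maf read 13.06, 13.07 and 12.95 against 11.86, 11.46 and 12.06 (1.23 ± 0.17), and Satb1, which promotes somatostatin expression, 11.05, 11.04 and 11.05 against 10.35, 10.54 and 10.60 (0.55 ± 0.11). Among neuropeptide genes, Npy read 9.50, 9.53 and 8.76 in MGE cells and 9.70, 7.47 and 9.07 in CGE cells, so that the groups overlapped, and Sst (1.20 ± 0.64) was not called either. Pnoc, the gene of prepronociceptin, was the single neuropeptide gene of 8 that was called (-1.50 ± 0.35). Elfn1, a postsynaptic protein gene of somatostatin interneurons, was higher in MGE cells by 2.26 ± 0.40. Chodl, a gene of long-range somatostatin neurons, went the other way and read 4.69, 5.25 and 4.19 against 7.87, 8.32 and 7.17 (-3.08 ± 0.49).

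Among the MTG co-repressor genes, Cbfa2t3 read 10.52, 10.79 and 10.62 in MGE cells and 9.32, 8.71 and 9.41 in CGE cells, Runx1t1 read 12.38, 12.35 and 12.27 against 11.81, 11.26 and 11.06, and Cbfa2t2 read 8.47, 8.70 and 8.49 against 8.91, 9.03 and 9.28. None of the 3 overlapped between the groups, as was so for 36.8% of all genes tested. Cbfa2t2 was the one with lower values in MGE cells (-0.52 ± 0.14), a call lost in 4 of 17 settings. In the wider list of chromatin and co-repressor genes, 5 of 51 were higher in MGE cells and 8 in CGE cells (median -0.09). Rest, the repressor of neuronal genes in other cells, was higher in MGE cells by 1.98 ± 0.13. The class IIa deacetylase genes did not share a direction, with Hdac9 at -2.29 ± 0.15, Hdac7 at -1.09 ± 0.13 and Hdac4 at 0.76 ± 0.15. The Groucho co-repressor gene Tle1 was -1.27 ± 0.21.

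On the CGE side, the largest differences included those of transcription factors of the caudal and lateral eminences and of genes of their neurons. G630016G05Rik (-4.29), Gt(ROSA)26Sor (-4.05) and Glipr2 (-4.01), which are taken up below, were also among the largest. The difference of Sp8 was -7.48 ± 0.13 (adjusted p = 9.1e-12). Synpr, which encodes the vesicle protein synaptoporin, read 4.56, 4.10 and 4.83 in MGE cells and 10.30, 10.67 and 10.92 in CGE cells (-6.14 ± 0.24). Adarb2, an RNA-editing enzyme homologue that marks CGE interneurons, was -4.51 ± 0.21. Of 9 tested CGE regulators, 5 were higher in CGE cells and 0 were higher in MGE cells (median -1.19). Nr2f2 read 9.25, 8.61 and 9.30 in MGE cells and 11.69, 11.39 and 11.75 in CGE cells, and Nfib, a nuclear factor I gene, was -1.28 ± 0.22. Nfix was not called by the probe set that stood for it (-1.19 ± 0.40), but its 4 other probe sets were called higher in CGE cells (-1.62 to -1.25). Npas1 (-0.83 ± 0.28) was not called.

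Prox1 and its antisense transcript were both higher in CGE cells. Prox1 read 9.12, 8.90 and 9.04 in MGE cells and 11.37, 11.39 and 11.96 in CGE cells, so that the MGE values lay above the filter level. Prox1os, transcribed from the opposite strand next to it, read 5.41, 4.28 and 4.13 in MGE cells and 8.63, 7.47 and 8.81 in CGE cells (-3.70 ± 0.38), with all MGE values below that level. Probe sets of the array type used here were designed for 1 strand.

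Corticosteroid receptor genes and several genes without a list also stood apart. The mineralocorticoid receptor gene Nr3c2 was -3.50 ± 0.28 and its relative Nr3c1, the glucocorticoid receptor gene, was higher in MGE cells by 2.16 ± 0.17, so that the 2 corticosteroid receptor genes had opposite directions. Nr3c1 read 7.29, 7.31 and 7.81 in MGE cells and 5.26, 5.18 and 5.52 in CGE cells. Of genes that no list held, G630016G05Rik (-4.29 ± 0.46), Glipr2 (-4.01 ± 0.41), Rwdd3 (-3.81 ± 0.23), the sidekick adhesion gene Sdk2 (-3.30 ± 0.24) and Tmem123 (-3.24 ± 0.47) had the largest differences. Rwdd3 read 6.77, 7.59 and 7.80 in MGE cells and 11.43, 10.85 and 11.30 in CGE cells.

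Genes of the lateral eminence and of striatal and olfactory bulb neurons counted 6 of 8 with a call towards CGE cells and 0 towards MGE cells (median -1.93). Meis2, a homeodomain factor of striatal and olfactory neurons, read 7.90, 8.79 and 8.47 in MGE cells and 12.07, 12.36 and 11.67 in CGE cells (-3.65 ± 0.53). Pbx3, a partner of MEIS proteins, read 7.93, 8.46 and 8.25 against 11.21, 10.89 and 10.81 (-2.76 ± 0.19). Foxp2 was -3.26 ± 0.56, Meis1 -2.02 ± 0.27 and Foxp1 -1.83 ± 0.47. The size of the Foxp1 difference rested in part on 1 array, since it was at 12.06 on CGE replicate 1 and at 10.04 and 10.11 on the others. Its call was kept in 17 of 17 alternative settings, with differences from -2.18 to -1.17. The list mean was likewise highest on CGE replicate 1, at 10.44 against 10.00 and 9.81. Bcl11b and Tshz1, which are also expressed in these neurons, were at 0.02 and 0.04. The sort of CGE cells takes cells of the lateral eminence as well, and the part of such cells in the differences was not tested.

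Genes that all forebrain GABAergic neurons share had 6 of 9 called towards CGE cells (median -0.75). Dlx1 read 11.43, 11.53 and 11.16 in MGE cells and 12.26, 12.45 and 12.26 in CGE cells (-0.95 ± 0.12). Because the CGE reporter was driven by Dlx1, this gene was tied to the sort. Dlx5 was -0.75 ± 0.14, Dlx6 -0.92 ± 0.18 and the antisense transcript Dlx6os1 -1.56 ± 0.17. The GABA synthesis gene Gad2 (-0.27 ± 0.11) and the vesicular GABA transporter gene Slc32a1 (0.02 ± 0.17) were not called. The tested markers of oligodendrocyte precursors had list means of 10.10 to 10.80 in MGE and 5.04 to 5.31 in CGE cells on the same arrays. The part of such cells in the lower values of the shared GABAergic genes was not tested.

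Among cell cycle genes, those of the D-type cyclins, which start the cycle in G1, did not share a direction. Ccnd1 read 10.84, 10.50 and 11.13 in MGE cells and 7.50, 7.45 and 8.0 in CGE cells (3.17 ± 0.19), and Ccnd3 was higher in MGE cells by 1.71 ± 0.14. Ccnd2 read 11.24, 11.06 and 11.33 in MGE cells and 12.20, 12.64 and 12.47 in CGE cells (-1.22 ± 0.20). All 6 other probe sets of Ccnd2 had the same call, with larger differences of -3.38 to -2.04, and both others of Ccnd1 had the call of that gene. Genes of DNA replication had 6 of 18 called towards CGE cells (median -0.61), including the GINS subunit gene Gins1 (-1.31 ± 0.24) and the clamp loader subunit gene Rfc3 (-1.15 ± 0.21). Mitosis genes had a median of -1.01, and Aurka (-1.64) and Aurkb (-1.59), both mitotic kinase genes, were the 2 of 18 that were called. The mean of the mitosis list was 10.60 on CGE replicate 2, against 9.10 and 9.39 on the other CGE arrays and 8.40 to 9.05 on the MGE arrays, and without that array 0 of 18 mitosis and 4 of 18 replication genes were called higher in CGE cells. The count of mitosis genes was also 0 without MGE replicate 1 and without MGE replicate 2, and it was 3 without CGE replicate 1. The cell cycle exit genes Btg1 (-0.98 ± 0.11), Gadd45g (-1.25 ± 0.20) and Cdkn2d (-0.88 ± 0.16) were also higher in CGE cells, and the inhibitor gene Cdkn1b was -0.05 ± 0.13.

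Genes of immature neurons and of the cytoskeleton differed little. Among 28 immature neuron genes 5 were higher in CGE cells and 0 in MGE cells (median -0.10). Igfbpl1, a gene of newborn neurons, read 8.42, 8.57 and 8.22 in MGE cells and 10.27, 10.55 and 10.27 in CGE cells (-1.96 ± 0.14), and Stmn2, which destabilises microtubules in growing axons, was -1.32 ± 0.11. Microtubule genes counted 6 of 32 with a call towards CGE cells (median -0.10).

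Migration and guidance genes were called in both directions. Over all genes tested, the shares were 13.0% towards MGE cells and 9.85% towards CGE cells. Whether the lists below depart from these shares was not tested. Ackr3, the atypical receptor for the chemokine that guides interneurons, read 12.91, 12.82 and 12.71 in MGE cells and 11.47, 10.22 and 10.83 in CGE cells (1.97 ± 0.35), whereas its partner Cxcr4 was 0.54 ± 0.20 and was not called. Among semaphorins, plexins and neuropilins, 6 of 18 were higher in MGE cells and 2 in CGE cells (median 0.18), with Sema6a at 1.86 ± 0.20 and Sema4b at -0.69 ± 0.11. Of 13 genes of the Slit, Robo, netrin and contactin list, 3 were higher in MGE cells and 2 in CGE cells (median -0.14). The ligand genes were opposed here, since Ntn1 was higher in MGE cells by 3.10 ± 0.33 and Slit1 read 7.34, 7.13 and 6.97 in MGE cells and 9.63, 9.51 and 10.28 in CGE cells (-2.66 ± 0.19). The netrin receptor genes Unc5c (2.16 ± 0.39) and Unc5b (-2.14 ± 0.27) were opposed too. Of 11 Eph receptor and ephrin genes, 3 were higher in MGE cells and 2 in CGE cells, and Efna5 had the largest difference among them at 1.90 ± 0.18.

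Some groups were on the CGE side in part. Of 15 imprinted genes, 5 were higher in CGE cells and 0 in MGE cells, although the median was 0.08. Meg3, a maternally expressed noncoding RNA, read 10.29, 10.28 and 9.73 in MGE cells and 11.59, 11.96 and 11.86 in CGE cells (-1.70 ± 0.29), and all 10 of its other probe sets were called in the same direction. Rian, transcribed from the same locus, was -0.96 ± 0.20, Peg10 was -1.34 ± 0.27 and Plagl1 was -1.05 ± 0.18. Long noncoding RNA genes had 7 of 13 called towards CGE cells and 0 towards MGE cells (median -0.96). The called members include Meg3 and Rian, and Dlx6os1, which is also in the GABAergic list. They also include Gt(ROSA)26Sor, the lowest of the list at -4.05, whose difference cannot be told apart from the reporter insertion. Malat1, an abundant nuclear RNA, was -0.14 ± 0.12. The MHC class I light chain gene B2m was higher in MGE cells by 2.38 ± 0.38 and the interferon-induced gene Ifitm2 was -1.58 ± 0.17. Ribosomal protein genes had a median of -0.02, with 2 of 35 called.

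Gt(ROSA)26Sor, the noncoding transcript of the locus that held the reporter of the MGE cells, read 4.71, 4.64 and 4.83 in MGE cells and 9.32, 9.19 and 7.81 in CGE cells. The groups differed in the allele of this locus, so that its difference cannot be told apart from the reporter insertion. Among the 20 tested genes on each side of it on the chromosome, 8 were higher in MGE cells and 7 in CGE cells, with differences from -2.48 to 2.56. Among the 20 on each side of Dlx1, 4 were higher in MGE cells and 9 in CGE cells, with differences from -1.74 to 3.61. Each count is out of 40 neighbours, and over all genes tested the shares were 13.0% and 9.85%. Whether the neighbours depart from these shares was not tested. Transcripts of the Y chromosome varied between arrays of a group, with Eif2s3y at 7.98, 6.97 and 8.50 in MGE cells and 10.26, 8.74 and 9.33 in CGE cells (-1.63 ± 1.57, not called).

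The E18.5 difference was then set against the difference between MGE cells at E14.5 and CGE cells at E16.5, which rests on other arrays. In this earlier pair lineage and day are not separated. The change, which is the E18.5 difference minus the earlier one, was called towards MGE cells for 595 genes (6.77% of those tested) and towards CGE cells for 165 genes (1.88%). Of the 1143 genes higher in MGE cells at E18.5, 453 had a change called in the same direction and 687 had none called. Of the 866 genes higher in CGE cells, these numbers were 115 and 726. The E18.5 arrays enter both the choice of these genes and the change, so a change in the same direction was favoured by the definition. These counts are therefore descriptions only. A change that was not called does not show that the differences were equal.

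Oligodendrocyte precursor genes were among those that changed towards MGE cells. A change towards MGE cells was called for 17 of 19 precursor surface and matrix genes, 12 of 15 oligodendrocyte transcription factors, 11 of 22 solute carriers and 14 of 26 matrix and integrin genes. Scrg1 changed by 5.14, Ednrb by 5.05, Kcnj16 by 5.18 and Vit by 5.18, and their earlier differences lay between -0.15 and 0.45. Vit, for example, was at 5.11 at E18.5 and at -0.07 before. Regulators of the MGE interneuron lineage showed no called change in any of 6 members. The AMPA receptor and neurexophilin genes Gria4 (0.27) and Nxph1 (0.18) had none called either. Most genes tested had none called, since the shares over all genes were 6.77% towards MGE cells and 1.88% towards CGE cells. For Lhx6 the change was -0.16 and for Sox6 it was 0.11.

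CGE regulators changed towards MGE cells for 4 of 9 members and towards CGE cells for 1. Prox1 had an earlier difference of -7.30 and changed by 4.75, with an MGE mean of 4.55 at E14.5 and 9.02 at E18.5. The change of Cxcl14, a chemokine gene of CGE interneurons, was 5.71, from -4.98 to 0.73, and at E18.5 its values of 8.23, 8.0 and 8.91 in MGE cells overlapped those of 8.74, 6.18 and 8.02 in CGE cells. Pbx3 changed by 2.30 and St18 by 2.64, whereas Sp8 (0.13), Synpr (0.08) and Htr3a (0.02) had no change called. Towards CGE cells, the largest changes were those of Kitl, the KIT ligand gene (-4.43), the connexin gene Gjc1 (-3.61) and G630016G05Rik (-2.90). Gjc1 was higher in MGE cells before (2.14) and higher in CGE cells at E18.5 (-1.47 ± 0.16). Tead2, a partner of YAP, was at 5.33, 5.79 and 6.13 in MGE cells and 7.68, 8.80 and 7.62 in CGE cells at E18.5, with a change of -2.59.

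**Figure D4:**
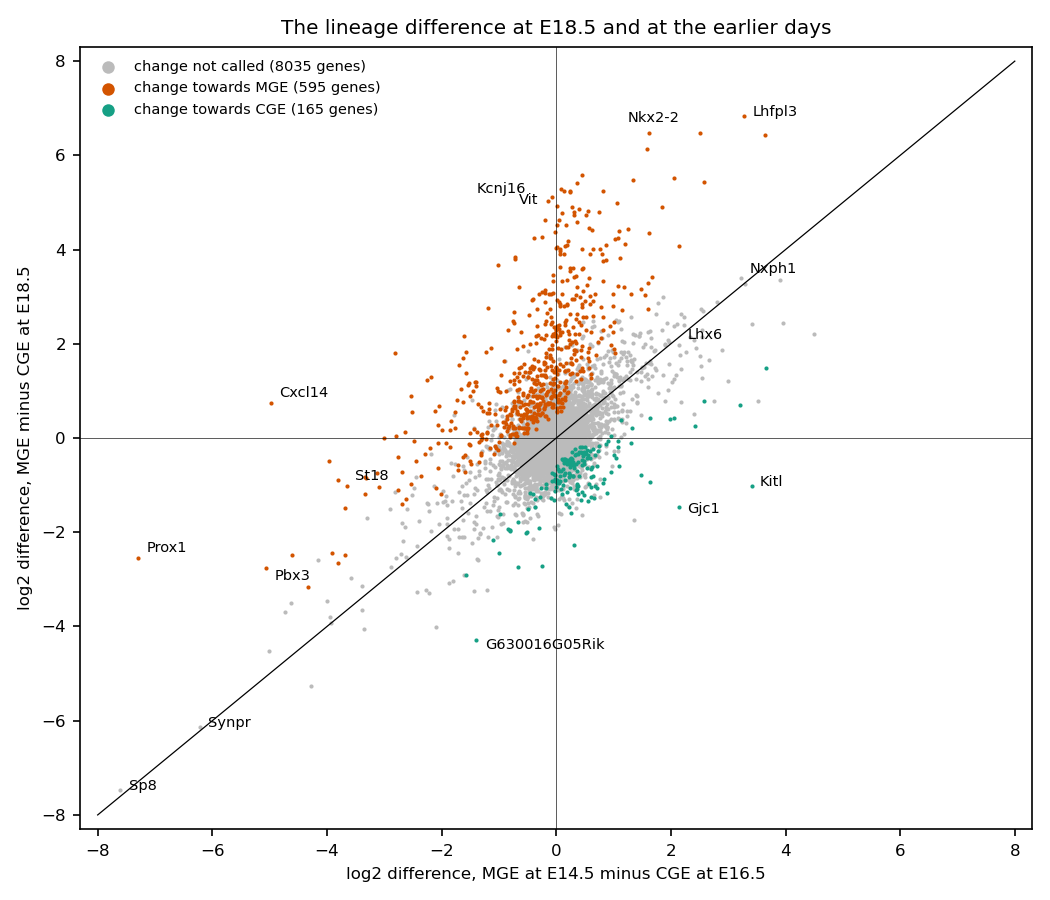
Each point is 1 of the 8795 genes tested, placed by its log2 difference between MGE cells at E14.5 and CGE cells at E16.5 (x axis) and between both lineages at E18.5 (y axis), with colours for 595 genes whose change was called towards MGE cells and 165 towards CGE cells, and a line where both differences are equal. Kcnj16 and Vit stand near 0 on the x axis and above 5 on the y axis, and Sp8 and Synpr lie on the line.

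**Figure D5:**
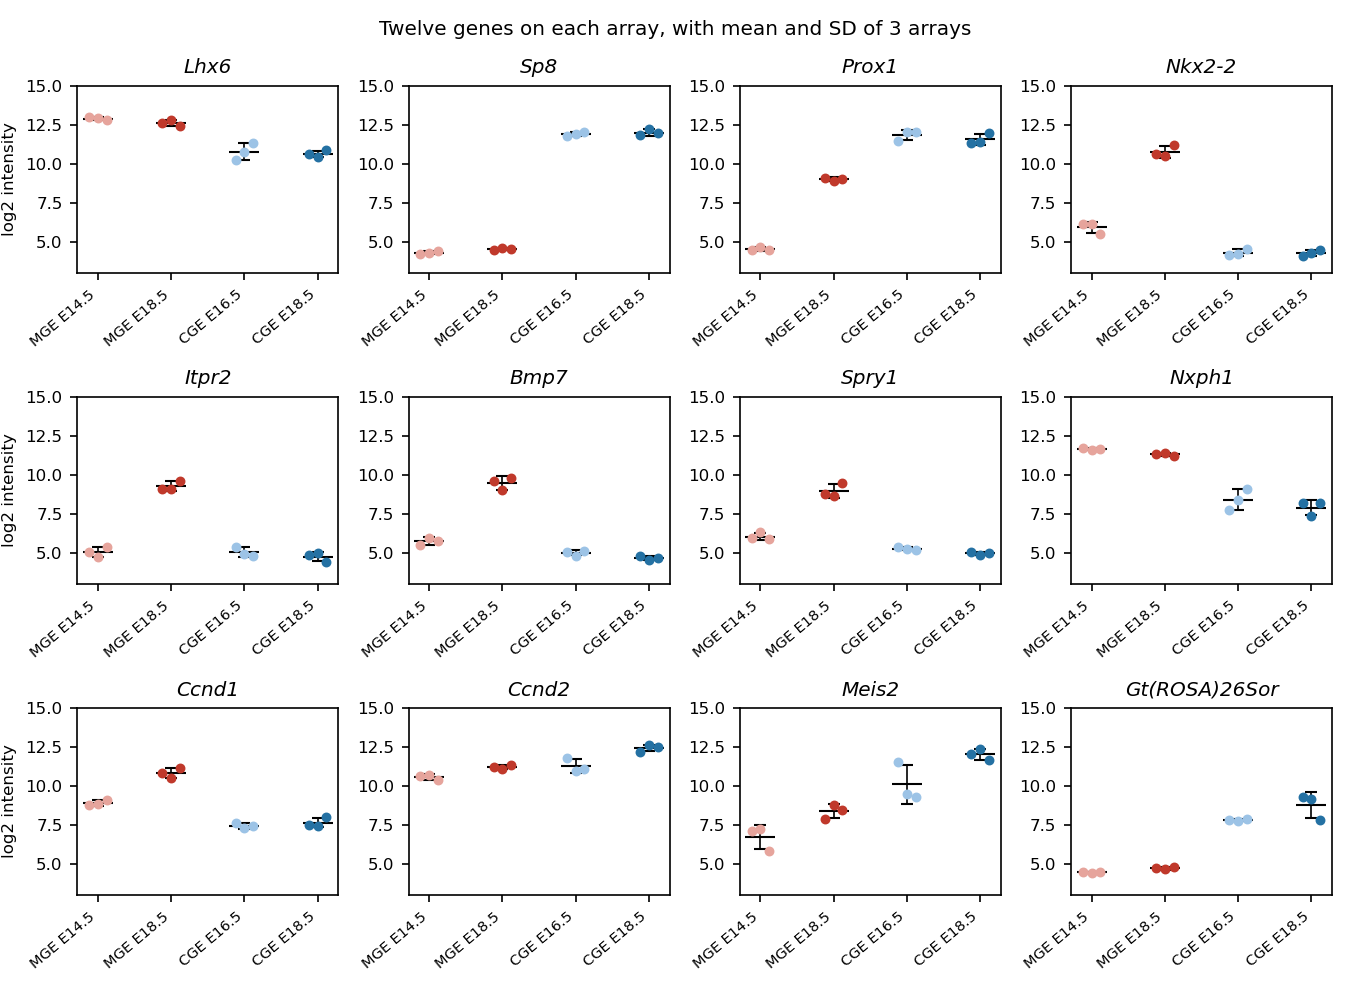
Each panel shows 1 gene on the 12 arrays, as log2 intensity (y axis) for each group (x axis), where a point is an array and black bars stand for the mean and SD of 3 arrays. Nkx2-2, Itpr2, Bmp7 and Spry1 have their highest mean in MGE cells at E18.5, Prox1 is low in MGE cells at E14.5 and at 9.02 on average at E18.5, and Gt(ROSA)26Sor is below 5 in both MGE groups.

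Probe sets of the same gene mostly had the same call. Of 988 other probe sets of genes higher in MGE cells, 681 were called in the same direction, 7 in the opposite direction and 300 were not called. For genes higher in CGE cells, 318 of 556 had the same call, 1 the opposite call and 237 none. Counted by gene, 128 of 575 genes higher in MGE cells with several probe sets had no other probe set with the same call. On the CGE side this held for 149 of 368. Chl1, an adhesion molecule gene named here after its values were seen, had calls in both directions. The probe set that stood for the gene read 12.98, 12.87 and 12.84 in MGE cells and 12.19, 11.67 and 12.60 in CGE cells (0.74 ± 0.22). Another read 5.95, 5.38 and 5.54 in MGE cells and 9.55, 8.95 and 9.0 in CGE cells (-3.54 ± 0.23). Where the probe sets lie in the gene was not examined. Dim values limit the sizes of many differences, since 368 of the 1143 genes higher in MGE cells had a CGE mean below the filter level, and 190 of the 866 genes higher in CGE cells had an MGE mean below it.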

How the data were processed

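RNA of sorted cells was measured on 12 Affymetrix Mouse430_2 arrays, 3 per group, of which the 6 of E18.5 were compared. Per the study's methods, cells were papain-dissociated and sorted, RNA was amplified (NuGEN Ovation Pico) and labelled with biotin, and the authors background-corrected and normalised the intensities in Bioconductor. The submitters' processing notes name MAS5. The deposited values are log2 intensities from 3.23 to 14.97, with array medians of 7.75 to 7.81, so that MAS5 output would have been transformed, and which normalization was used is not settled here. The number of arrays limits the precision, and without detection calls a dim value cannot be told from an absent transcript.

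Of 27094 probe sets, 34 controls were left out, GEO's platform table paired 22339 with 1 gene symbol and 571 with more than 1, and left 4150 unnamed. The Entrez IDs of 22269 were found in RefSeq (GRCm38.p6) and 0 symbols changed. Probe sets above the 40th percentile of an array (log2 7.10 to 7.17) on at least 3 arrays were kept (16008), and each gene was represented by its brightest probe set on average. The 12 arrays were fitted together with limma 3.58.1 in R 4.3.3 (lmFit and eBayes, 8 residual and 3.6 prior degrees of freedom), and p-values were adjusted over 8795 genes by the Benjamini-Hochberg method at 0.05. The fit was tested on simulated data. Genes named were those with the largest differences, the largest members of each list in each direction, and genes known for these lineages. The members and lists were chosen with earlier results of these data known. Replicate numbers of the 2 groups did not pair the arrays (correlations of deviations of -0.027, -0.032 and -0.038). Alternatives covered the arrays fitted, the filter, the choice of probe set, normalization, moderation, array weights, the replicate block and leaving out each array. Figures were drawn with matplotlib 3.10.9.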

Additional observations from a re-analysis of the deposited data

Results flagged for a closer look

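The difference between MGE and CGE cells at E18.5 was unlike that between MGE cells at E14.5 and CGE cells at E16.5 for 595 genes towards MGE cells and for 165 genes towards CGE cells (limma, test of the difference between the 2 differences). In the earlier pair, day and lineage cannot be told apart. Towards MGE cells, the change on the log2 scale was 5.71 for the chemokine gene Cxcl14, 5.21 for Tmem132d, 5.18 for both Kcnj16 and Vit, 5.14 for Scrg1, 5.11 for Calcrl, 5.05 for Ednrb and 5.02 for Shc4. It was 5.0 for Gpr17, 4.87 for Nkx2-2, 4.75 for Prox1, 4.54 for Sox10, 4.42 for Gatm and 4.13 for Cspg4. Further genes with large E18.5 differences changed by less, with 3.97 for Pdgfra, 3.56 for Lhfpl3, 3.46 for Col19a1, 2.86 for Cntn1 and 2.78 for Olig1. Towards CGE cells, the change was -4.43 for Kitl, -3.61 for Gjc1, -2.90 for G630016G05Rik, -2.59 for Tead2, -2.58 for Snhg11, -2.50 for the kainate receptor gene Grik1, -2.47 for Igsf11 and -2.27 for Kcp.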

How the results depend on the processing

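Of 258 named genes followed through 17 alternatives, 207 had the same direction and call wherever they could be fitted, 49 lost the call in at least 1, 1 gained one (Sst) and 1 changed sign (Npy, not called, which ranged from -0.12 without CGE replicate 2 to 0.99 with other arrays left out). Leaving out each array of E18.5 in turn gave 871 to 1244 genes higher in MGE and 608 to 814 in CGE cells, 544 to 617 and 220 to 289 by 2-fold or more, and 462 to 688 and 101 to 207 with a change towards MGE and CGE cells. The lowest of these, 101, was without MGE replicate 3. Testing every probe set on its own gave 2077 and 1547 calls, 1029 and 509 by 2-fold or more, and 1064 and 416 changes, over 16008 probe sets in place of 8795 genes. The stricter filter gave 384 and 164 calls by 2-fold or more among 6593 genes. Array weights gave 258 changes towards CGE cells, and the cause was not tested. With the replicate block there were 1127 and 814 calls, although the numbers did not pair the arrays, and it moved none of these counts over all genes by more than 1.5 times. Counts of called list members stayed within 1.5 times of those given in 1670 of 1824 cases. Small differences of dim genes are limited by the signal over background, which the files do not give.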
